A study of Mus musculus with 4 samples.

Results

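The 44 genes described here are the cyclins, the cyclin-dependent kinases (CDKs), the CDK inhibitors, the E2F transcription factors and their nearest regulators in mouse medullary thymic epithelial cells (mTECs). They were listed by name without a cutoff on a measured value, but with earlier results of these data known. They fall into 7 roles. These are 5 G1 cyclins, 5 cyclins of S, G2 and M phase, 7 CDKs and CKS cofactors, and 8 CDK inhibitors. The others are 10 E2F factors and DP partners, 3 pocket proteins, and 6 genes of the CDC25, WEE1 and SKP2 kind. All 44 were among the 23337 genes of the count table, and all 44 passed the filter on low counts that left 18547 genes for testing.

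RNA-seq was done on sorted mTECs (CD45-, EpCAM+, UEA-1+, Ly51-) of C57BL/6 mice aged 4 weeks, with 2 libraries per group. The WT mice lacked *Foxn1*-Cre. The *Sirt6* cKO mice, labelled Sirt6-/-, carried *Foxn1*-Cre and loxp/loxp alleles of *Sirt6*, which encodes a deacetylase of the sirtuin family. *Foxn1* is expressed in thymic epithelium as a whole, so the Cre is not particular to mTECs, and how many mice gave each library is not given in the sources used here. The comparison asks whether the proliferation genes of mTECs differ between the genotypes.

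A cell enters division when D-type cyclins with CDK4 or CDK6, and then E-type cyclins with CDK2, phosphorylate the pocket proteins RB1, RBL1 and RBL2. The pocket proteins then release E2F factors, which bind DNA with a DP partner and switch on genes of DNA replication, while A-type and B-type cyclins with CDK2 and CDK1 drive S phase and mitosis. The INK4 inhibitors block CDK4 and CDK6, the CIP/KIP inhibitors block CDK complexes more broadly, and genes of late cell cycle are switched on through promoter elements called CHR and CCAAT boxes. In the thymus, mTECs of young mice include a dividing fraction beside mature cells that present tissue antigens.

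Total counts per library ranged from 61102704 to 65907745. *Sirt6* was counted 622 and 755 times in WT and 882 and 835 times in *Sirt6* cKO, which was 0.37 ± 0.32 higher on the log2 scale (edgeR, SE, adjusted p = 0.800). Counts over a whole gene include exons that a loxP deletion may leave, so this value does not test the deletion. *Sirt6* was still not lower in *Sirt6* cKO, whose 2 libraries are therefore called cKO-labelled here. From a western blot of cultured thymic epithelial cells and quantitative PCR of sorted mTECs, the study reported that *Sirt6* was inactivated. The 9 mTEC markers summed to 9950 and 9760 CPM (counts scaled to the size of each library) in WT and to 11286 and 11065 in the cKO-labelled libraries, with none at 0. Every direction below compares libraries by these labels.

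Of the 44 regulators, 1 was higher and 1 was lower in the cKO-labelled libraries at an unadjusted p of 0.05 (edgeR), beside 5.27% of all genes tested that were higher and 3.32% that were lower (8.58% in both directions). The higher gene was *E2f3*, an E2F factor, and the lower gene was *Ccna1*, the A-type cyclin of the germ line. No member reached an adjusted p of 0.05 in edgeR, where 0.00539% of all genes tested did (1 gene). DESeq2 placed 1 member higher and 2 lower at an unadjusted p of 0.05 (5.80% and 4.38% of the genes it tested). It placed 1 member, *Ccna1*, past an adjusted p of 0.05, beside 354 of the 20997 genes it tested. The median log2 fold change was -0.08 over the 44 members and -0.00 over all genes tested, with 20 members above 0 and 24 below. In 39 members (88.6%) the larger gap between the 2 libraries of a group exceeded the gap between the group means (log2 CPM), against 71.8% of all genes tested. Without a normalization factor the share of higher genes among all genes called was 46.2%, and with upper quartile factors it was 48.4%, in place of 61.4%.

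The promoters of 6 members are shown here as a description, and no difference between libraries was tested against them. They belong to 4 late cell cycle genes and to the 2 genes that passed the unadjusted threshold. In the 4 late genes the larger gap between replicates exceeded the gap between genotypes, for *Ccnf* only narrowly. RefSeq windows (build GRCm38.p6) were matched for 34 of the 44 members, and the 250 bases before the RefSeq start were searched on both strands. The GENCODE M21 annotation can place a start elsewhere. Its *Ccna1* gene spans chr3:55045469-55055501, so the *Ccna1* window lies wholly inside that gene. The *Cdk1*, *Ccnb1* and *Ccnf* windows reach in part into their GENCODE genes. The E2F site was read as TTCCCGC, or as its variant TTCGCGC, or as its variant TTGCCGC, or as its variant TTGGCGC; the CHR was read as TTTGAA, or as its variant TTCGAA; and the third motif was the CCAAT box. Capitals mark these motifs, which can stand in either orientation, and each run is written 5′ to 3′ on the strand of the gene. The windows are *Cdk1* at chr10:69352913-69353162 (minus strand), *Ccnb1* at chr13:100786487-100786736 (minus), *Ccnb2* at chr9:70421555-70421804 (minus), *Ccnf* at chr17:24251410-24251659 (minus), *E2f3* at chr13:29986064-29986313 (minus; the first of 2 listed windows) and *Ccna1* at chr3:55055056-55055305 (minus).
Cdk1: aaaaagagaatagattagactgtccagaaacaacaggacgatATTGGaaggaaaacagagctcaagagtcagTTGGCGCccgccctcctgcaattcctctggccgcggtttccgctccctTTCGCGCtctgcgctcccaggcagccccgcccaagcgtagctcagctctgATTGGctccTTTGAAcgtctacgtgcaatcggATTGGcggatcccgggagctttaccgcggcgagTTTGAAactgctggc
Ccnb1: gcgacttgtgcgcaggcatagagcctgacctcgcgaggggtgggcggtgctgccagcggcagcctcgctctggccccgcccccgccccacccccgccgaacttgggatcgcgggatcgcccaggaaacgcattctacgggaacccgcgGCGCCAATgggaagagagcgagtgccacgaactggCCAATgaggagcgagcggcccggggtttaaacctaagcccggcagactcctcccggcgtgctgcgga
Ccnb2: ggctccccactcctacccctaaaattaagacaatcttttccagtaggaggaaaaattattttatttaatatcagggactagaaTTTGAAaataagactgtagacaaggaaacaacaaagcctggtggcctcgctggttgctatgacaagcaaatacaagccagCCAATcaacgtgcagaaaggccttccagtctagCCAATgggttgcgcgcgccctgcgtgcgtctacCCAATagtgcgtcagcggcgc
Ccnf: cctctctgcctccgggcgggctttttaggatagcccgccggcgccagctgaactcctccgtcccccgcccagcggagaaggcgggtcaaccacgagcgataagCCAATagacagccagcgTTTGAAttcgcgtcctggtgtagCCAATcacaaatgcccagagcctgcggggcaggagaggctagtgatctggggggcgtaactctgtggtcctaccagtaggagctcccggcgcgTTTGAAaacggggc
E2f3: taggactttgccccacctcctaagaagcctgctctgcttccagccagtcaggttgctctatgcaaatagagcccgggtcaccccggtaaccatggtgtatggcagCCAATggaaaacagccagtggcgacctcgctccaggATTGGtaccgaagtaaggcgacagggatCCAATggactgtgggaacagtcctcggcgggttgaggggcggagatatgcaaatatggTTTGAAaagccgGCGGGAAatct
Ccna1: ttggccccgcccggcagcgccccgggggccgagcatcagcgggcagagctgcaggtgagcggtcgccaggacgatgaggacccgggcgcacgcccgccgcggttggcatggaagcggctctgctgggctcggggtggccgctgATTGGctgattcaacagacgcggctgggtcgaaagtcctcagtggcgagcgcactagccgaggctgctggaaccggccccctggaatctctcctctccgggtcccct

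An E2F site was present in 11 of the 34 member promoters (32.4%), against 7.97% of the 27025 promoters in the RefSeq table. Those 27025 promoters were not matched to the members in gene type or base composition. The CCAAT box was present in 19 (55.9%, against 34.5%), the CHR in 10 (29.4%, against 17.4%) and both together in 8 (23.5%, against 6.21%). Among the 7 late members with a window, all 7 held a CCAAT box and 4 held a CHR as well. Among the 10 G1/S members with a window, 5 held an E2F site. The *Cdk1* window held 2 E2F sites, 2 CHR and 3 CCAAT boxes, and in the *Ccnb1* window the E2F site overlapped 1 of the 2 CCAAT boxes. The *E2f3* window held all 3 kinds of motif. The *Ccna1* window, which lies inside the GENCODE gene, held 1 CCAAT box with no match to the other motifs. A match of letters is a description, and binding was not measured.

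**Figure D1:**
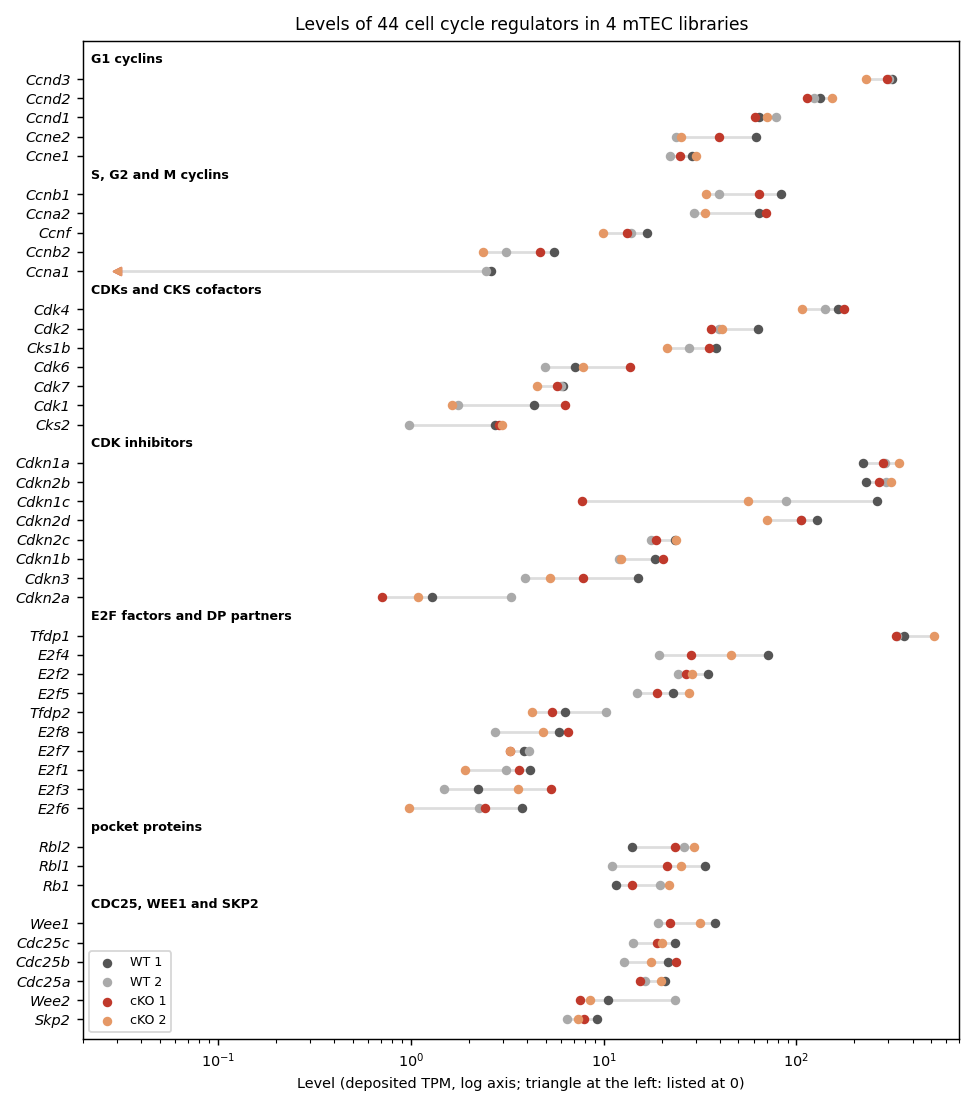
Levels of the 44 regulators in each of the 4 libraries, grouped by role, as TPM on a log axis. *Tfdp1*, *Ccnd3*, *Cdkn2b* and *Cdkn1a* lie highest, *Cdkn1c* has the widest spread, and *Ccna1* is listed at 0 in both cKO-labelled libraries.

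On the length-corrected TPM scale, the most abundant member was *Tfdp1*, the main DP partner, at 347 ± 18.5 TPM in WT and 421 ± 133 in the cKO-labelled libraries (SD, n = 2). *Ccnd3*, a D-type cyclin, followed at 308 ± 7.24 and 262 ± 46 TPM, and the INK4 inhibitor *Cdkn2b* stood at 261 ± 43.9 and 288 ± 29.0 TPM. These 3 and *Cdkn1a* (255 ± 46.7 and 311 ± 40.5 TPM) overlapped within 1 SD of each other in the cKO-labelled libraries, so their order there is not settled. At the other end, *Cks2*, *E2f3*, *Cdkn2a*, *Ccna1* and *E2f6* were the lowest 5 in WT, between 1.85 and 3.0 TPM. *Cdk1*, the mitotic kinase, was also near the low end, at 3.06 ± 1.84 TPM in WT, where its partner *Ccnb1* stood at 61.3 ± 30.7 TPM. Reads were assigned without a stated strand or multi-mapping rule, and 42.1% of the 50-base words of *Ccnb1* are shared with other genes, pseudogenes among them. The same holds for 29.7% of *Cks2*, 24.2% of *Tfdp1* and 7.75% of *Cks1b*, so the levels of these 4 genes are uncertain.

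The G1 cyclins carry growth signals into the cycle, and none of the 5 passed the unadjusted threshold in edgeR or DESeq2. *Ccnd1*, the D-type cyclin typical of epithelia, had 112 and 134 CPM in WT and 107 and 121 CPM in the cKO-labelled libraries, a log2 fold change of -0.11 ± 0.20 (SE). *Ccnd2* had 352 and 317 CPM in WT and 301 and 403 CPM in the other group (0.07 ± 0.20), so both values of WT lay inside the range of the other group. *Ccnd3* had 287 and 270 CPM in WT and 268 and 209 CPM in the cKO-labelled libraries (-0.22 ± 0.19, edgeR unadjusted p = 0.289). The groups of *Ccnd3* did not overlap but were nearly touching, and lower non-overlap of this kind held for 20.3% of all genes tested. The sum of the 3 D-type cyclins was 509 and 504 TPM in WT and 469 and 452 TPM in the other group, with *Ccnd3* making up 50.7% to 62.7% of it in every library. The 95% intervals of the log2 difference were -0.61 to 0.39 for *Ccnd1*, -0.43 to 0.58 for *Ccnd2* and -0.70 to 0.25 for *Ccnd3*, all within a 2-fold difference in either direction.

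The E-type cyclins bring CDK2 into action at the start of S phase. *Ccne1* had 26.1 and 19.4 CPM in WT and 22.4 and 26.9 CPM in the cKO-labelled libraries, with overlapping groups. *Ccne2* had 85.8 and 32.1 CPM in WT and 55.0 and 34.7 CPM in the other group, a log2 fold change of -0.39 ± 0.52 (SE). The high value of *Ccne2* was WT 1, and without that library the estimate turned to 0.46. In both groups replicate 1 had more *Ccne2* than replicate 2, by 1.42 (log2) in WT and 0.66 in the other group. The share of *Ccne2* in the E-type sum was between 45.6% and 68.1%.

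Among the cyclins of S, G2 and M phase, *Ccna1* was counted in WT alone. This A-type cyclin is known for its role in male meiosis, and its gene lies on the minus strand at chr3:55045469-55055501 in the GENCODE M21 annotation of GRCm38. The WT libraries held 124 and 110 of its counts (1.89 and 1.73 CPM), with 0 counts in both cKO-labelled libraries, at least 37.6-fold lower with 3 counts set as the floor of each library (edgeR unadjusted p = 0.00449, adjusted p = 0.541). *Ccna1* is among the genes that the study itself singled out from these libraries, so its direction here is not independent evidence. In TPM it gave 3.95% and 7.70% of the A-type sum in WT, and *Ccna2* gave the rest. Of its exonic bases, 185 overlap an antisense gene. A count of 0 in both cKO-labelled libraries beside at least 100 counts in both WT libraries was seen for 6 genes, *Ccna1* included, and the mirror pattern for 1 gene. A count of 0 in exactly 1 library beside at least 100 in the other 3 was seen for 80 genes, so isolated zeros also occurred within groups, and their part in the *Ccna1* result was not tested.

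*Ccna2*, the A-type cyclin of dividing somatic cells, had 82.5 and 37.1 CPM in WT and 89.3 and 43.3 CPM in the cKO-labelled libraries, a log2 fold change of 0.15 ± 0.51 (SE). *Ccnb1*, the main mitotic cyclin, had 88.7 and 41.1 CPM in WT and 68.3 and 36.0 CPM in the other group (-0.31 ± 0.48). In both genes replicate 1 of each group was far above replicate 2 of the same group, and the genotypes overlapped. *Ccnb2*, its paralog, had the same order of libraries, with 3.94, 2.17, 3.30 and 1.67 CPM from WT 1 and WT 2 to *Sirt6* cKO 1 and 2. The share of *Ccnb1* in the B-type sum stayed between 92.7% and 93.8% in the 4 libraries while that sum ran from 36.5 to 88.5 TPM. *Ccnf*, the cyclin that serves as the F-box subunit of an SCF ubiquitin ligase, had 24.1 and 19.4 CPM in WT and 18.8 and 14.1 CPM in the cKO-labelled libraries (-0.41 ± 0.32), without overlap and without passing the threshold (edgeR unadjusted p = 0.251).

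**Figure D2:**
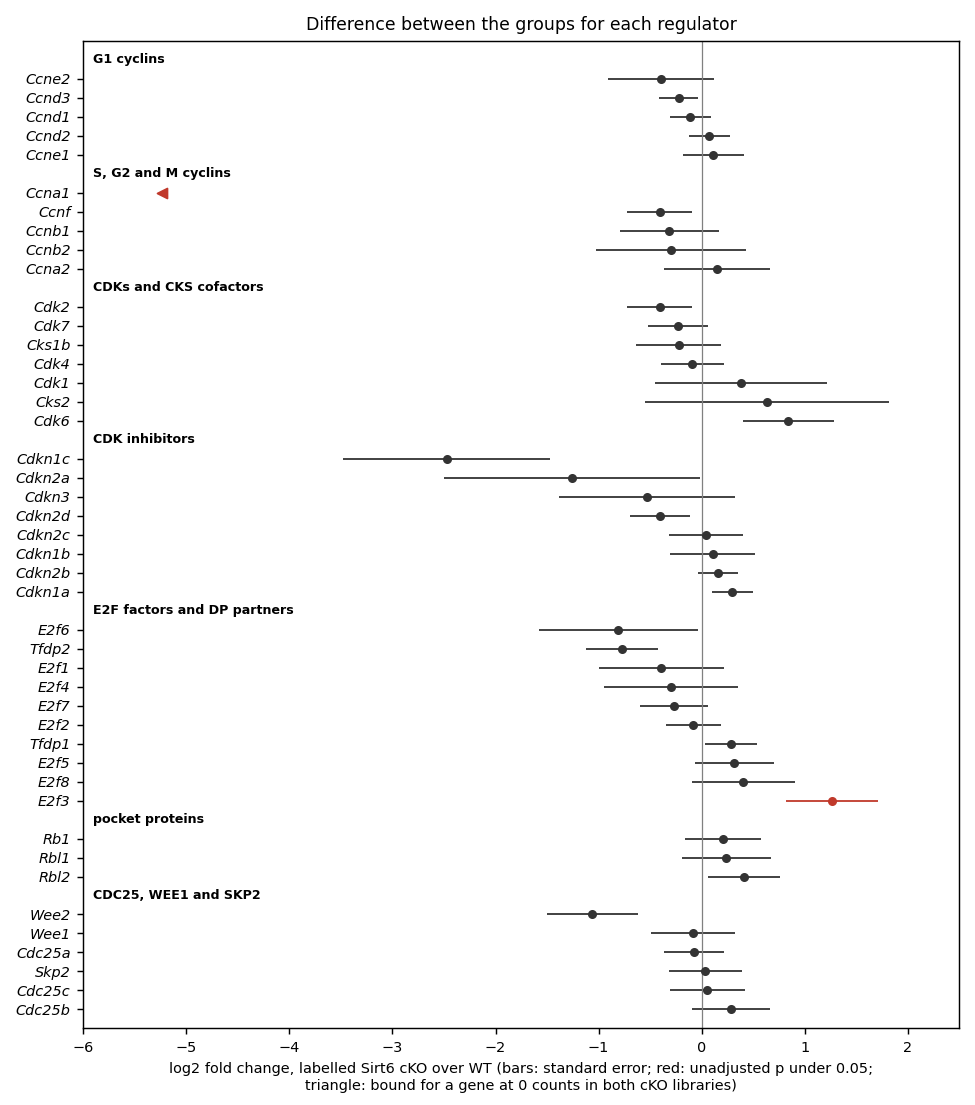
Log2 fold change of each regulator, cKO-labelled libraries over WT, with standard errors from edgeR, grouped by role; red marks an unadjusted p under 0.05 and the triangle a bound. *E2f3* lies at 1.26 and the bound of *Ccna1* at -5.23, and most bars of the other members cross 0.

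None of the 7 CDKs and CKS cofactors passed the unadjusted threshold in edgeR or DESeq2. *Cdk1* had 5.76 and 2.26 CPM in WT and 8.30 and 2.15 CPM in the cKO-labelled libraries, a log2 fold change of 0.38 ± 0.83 (SE). Replicate 1 exceeded replicate 2 by 1.34 (log2) in WT and by 1.93 in the other group, so the highest and the lowest value of *Cdk1* both came from the cKO-labelled libraries. *Cdk6*, one of the kinases that D-type cyclins activate, had 8.07 and 5.53 CPM in WT and 15.6 and 8.78 CPM in the other group (0.84 ± 0.45, edgeR unadjusted p = 0.113), and leaving out *Sirt6* cKO 1 gave 0.37, whereas leaving out *Sirt6* cKO 2 gave 1.18. Its groups did not overlap, and higher non-overlap of this kind held for 21.6% of all genes tested. As a share of the *Cdk4* and *Cdk6* sum in TPM, *Cdk6* gave 4.14% and 3.43% in WT and 7.19% and 6.80% in the cKO-labelled libraries, so *Cdk4* remained the main kinase of the pair in every library.

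*Cks2*, a small cofactor that docks CDKs on their substrates, had only 58, 20, 56 and 60 counts from WT 1 and WT 2 to *Sirt6* cKO 1 and 2 (log2 fold change 0.63 ± 1.18, SE). The single low library was WT 2. *Cdk2*, the kinase of S phase, was high in WT 1 alone, at 68.9 CPM against 42.1, 39.0 and 44.6 CPM in the other libraries. *Cdk7*, which activates the other CDKs and is also part of the transcription machinery, was among the steadiest members, with 21.5, 20.6, 20.0 and 15.7 CPM in the same order. *Cdk4* ran from 65.6 to 110 CPM and *Cks1b* from 7.41 to 13.4 CPM, with overlapping groups in both genes.

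The CDK inhibitors held the member with the widest spread of all. *Cdkn1c*, which encodes the CIP/KIP inhibitor p57 and is an imprinted gene expressed from the maternal allele, lies on the minus strand at chr7:143458339-143461050. Its counts were 15143 and 4825 for WT against 411 and 3114 for the cKO-labelled libraries, which is 231, 75.8, 6.81 and 48.5 CPM. Both WT libraries lay above both others, but the replicates of each group differed by 1.61 (log2) in WT and by 2.83 the other way in the cKO-labelled libraries. The log2 fold change was -2.47 ± 1.0 (SE; edgeR unadjusted p = 0.0536, adjusted p = 0.592), with a 95% interval of -5.00 to 0.05. It was -1.47 without WT 1 and -4.50 without *Sirt6* cKO 2. In edgeR the unadjusted p was 0.0433 without a filter, 0.0334 with the study's TPM filter and 0.0482 without normalization factors. In limma it was 0.0188 on log2(TPM + 1) and 0.0231 on log2(TPM + 0.1). The unadjusted p stayed above 0.05 in DESeq2 (0.0576), and in edgeR with upper quartile factors (0.0517) or a replicate block (0.101). The highest library had 34 times the CPM of the lowest, beside a median of 1.90 times over the 43 members with more than 3 counts in every library and 1.90 times over all 16821 such genes tested.

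*Cdkn1a*, which encodes the p53 target p21, had 196 and 247 CPM in WT and 248 and 296 CPM in the cKO-labelled libraries (log2 fold change 0.30 ± 0.20, SE; edgeR unadjusted p = 0.196). The groups of *Cdkn1a* touched without overlap. Since *Cdkn1c* varied so widely, the make-up of the CIP/KIP sum differed from library to library: *Cdkn1c* gave 52.2% and 22.8% of it in WT and 2.5% and 13.7% in the other group, while *Cdkn1a* gave 44.1% and 74.1% in WT and 91.0% and 83.3% in the other group. The whole CIP/KIP sum was 504 and 389 TPM in WT and 311 and 408 TPM in the cKO-labelled libraries, with overlapping groups. *Cdkn1b*, which encodes p27, was higher in replicate 1 than in replicate 2 of both groups, with 20.5 and 12.9 CPM in WT and 22.4 and 13.5 CPM in the other group.

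*Cdkn2a*, whose counts join the INK4 inhibitor p16 and the p53 regulator ARF, was counted 35 and 83 times in WT against 19 and 29 times in the cKO-labelled libraries (log2 fold change -1.26 ± 1.24, SE; edgeR unadjusted p = 0.355). These are low counts, and the 95% interval ran from -4.39 to 1.87. Its neighbour *Cdkn2b*, which encodes p15, was far more abundant, at 60.0% to 76.4% of the INK4 sum in TPM, and its CPM values of 147, 182, 171 and 196 from WT 1 and WT 2 to *Sirt6* cKO 1 and 2 overlapped between groups. The INK4 sum was between 383 and 418 TPM in the 4 libraries, a narrow range beside that of the CIP/KIP sum. *Cdkn2c*, which encodes p18, ran from 8.77 to 12.0 CPM, and *Cdkn2d*, which encodes p19, from 40.9 to 75.3 CPM. *Cdkn3*, a phosphatase that removes the activating phosphate of CDKs, had 5.38 and 1.37 CPM in WT and 2.80 and 1.86 CPM in the other group, with replicate 1 the higher one in both.

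**Figure D3:**
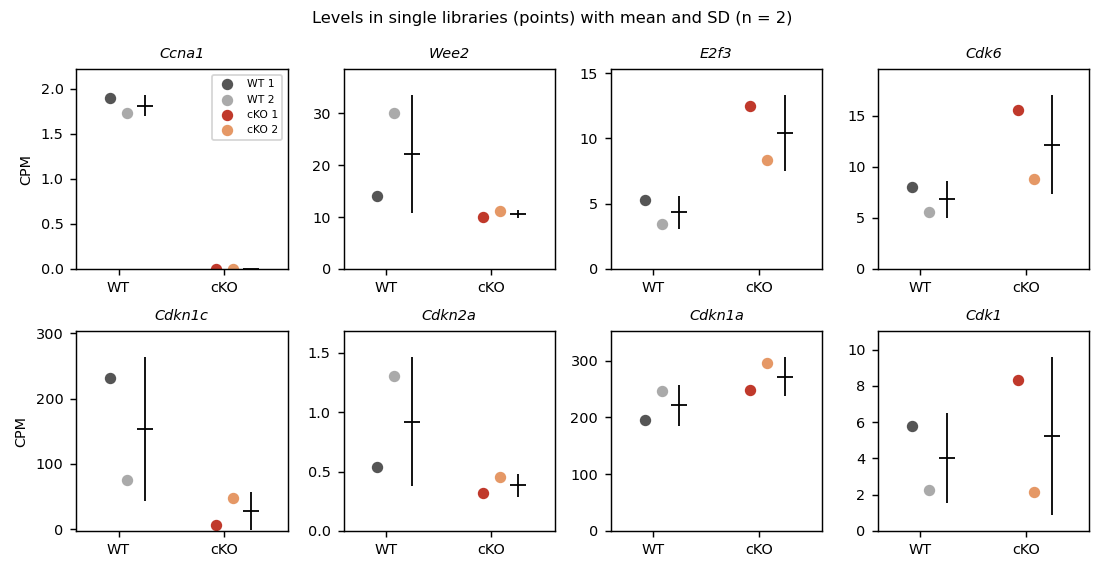
CPM of 8 regulators in each library (points), with the mean and SD of the 2 libraries of each group beside them. *Ccna1* is at 0 in both cKO-labelled libraries, *E2f3* is higher in both of them, and the libraries of one group lie far apart for *Cdkn1c* and *Cdk1*.

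*E2f3*, an activator E2F that drives genes of S phase entry and also gives rise to a shorter isoform with repressor roles, was the member that was higher in the cKO-labelled libraries. The gene lies on the minus strand at chr13:29906575-29986063. Its counts were 343 and 217 for WT against 751 and 534 for the cKO-labelled libraries, or 5.24, 3.41, 12.4 and 8.33 CPM. Both of the latter libraries exceeded both WT libraries. The log2 fold change was 1.26 ± 0.45 (SE; 2.40-fold; edgeR unadjusted p = 0.0340, adjusted p = 0.550), and counts of the whole gene do not tell the isoforms apart. The call was lost without WT 2, at 0.99 (edgeR unadjusted p = 0.104), and without *Sirt6* cKO 1, at 0.95 (edgeR unadjusted p = 0.187). *E2f3* too is among the genes the study named from these libraries. It remained a minor factor, at 5.43% and 5.14% of the sum of *E2f1*, *E2f2* and *E2f3* in WT and 14.9% and 10.4% in the other group, and that sum was 41.0 and 29.0 TPM in WT and 35.7 and 34.3 TPM in the other group.

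The other activators did not share this pattern. *E2f1*, the activator best known for inducing S phase, had 4.74 and 3.46 CPM in WT and 4.11 and 2.14 CPM in the cKO-labelled libraries (log2 fold change -0.39 ± 0.61, SE). *E2f2* had 75.6 and 51.8 CPM in WT and 58.1 and 62.2 CPM in the other group, which lay between the WT values. *E2f4*, a repressor that works with the pocket proteins, had 65.8 and 17.2 CPM in WT and 26.1 and 41.4 CPM in the other group, so the WT libraries were the highest and the lowest. *E2f6*, a repressor that acts without pocket proteins, had 4.32, 2.51, 2.78 and 1.12 CPM from WT 1 and WT 2 to *Sirt6* cKO 1 and 2 (-0.81 ± 0.77). The atypical repressor *E2f7* was the steadiest of the 43 members with more than 3 counts throughout, with 9.73 and 10.1 CPM in WT and 8.25 and 8.19 CPM in the other group, while *E2f8* ran from 4.53 to 11.1 CPM.

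*Tfdp2*, the minor DP partner, had 21.5 and 33.9 CPM in WT and 18.2 and 14.2 CPM in the cKO-labelled libraries, without overlap (log2 fold change -0.77 ± 0.35, SE; edgeR unadjusted p = 0.0741). *Tfdp1* supplied 97.0% to 99.2% of the DP sum in TPM and was highest in *Sirt6* cKO 2, at 399 CPM against 283, 255 and 255 CPM. *E2f5*, a repressor like *E2f4*, ran from 11.7 to 22.2 CPM with overlapping groups.

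The pocket proteins hold E2F factors in check, and none of the 3 passed the unadjusted threshold in edgeR or DESeq2. *Rb1* had 24.8 and 40.9 CPM in WT and 29.9 and 45.9 CPM in the cKO-labelled libraries (log2 fold change 0.21 ± 0.37, SE), so here replicate 2 was the higher one in both groups. *Rbl2*, which encodes p130 of resting cells, had the same order, with 31.6 and 57.4 CPM in WT and 52.4 and 65.8 CPM in the other group (0.41 ± 0.35). *Rbl1*, which encodes p107 of dividing cells, had 46.4 and 20.0 CPM in WT and 40.5 and 37.9 CPM in the other group (0.24 ± 0.43). In WT the replicate with more *Rbl1* thus had less *Rb1* and *Rbl2*. Single WT libraries decided 2 of these estimates: *Rbl1* was 0.95 higher without WT 1 (edgeR unadjusted p = 0.0388) and -0.24 without WT 2, and *Rbl2* was 0.91 higher without WT 2 (edgeR unadjusted p = 0.0430) and 0.02 without WT 1. The pocket protein sum was 59.3, 56.9 and 58.7 TPM in WT 1, WT 2 and *Sirt6* cKO 1, and 76.6 TPM in *Sirt6* cKO 2.

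Of the CDC25, WEE1 and SKP2 genes, *Wee2* differed most. It encodes a kinase of the WEE1 family known from oocytes, which adds the inhibitory phosphate to CDK1, and it lies on the plus strand at chr6:40439088-40466813. *Wee2* was counted 921 and 1920 times in WT against 605 and 717 times in the cKO-labelled libraries, or 14.1, 30.2, 10.0 and 11.2 CPM. Both WT values were higher, and WT 2 was far above the rest. The log2 fold change was -1.06 ± 0.44 (SE; edgeR unadjusted p = 0.0580, adjusted p = 0.600), and DESeq2 gave an unadjusted p of 0.0298. It was -0.41 without WT 2 and -1.53 without WT 1 (edgeR unadjusted p = 0.00836). *Wee1*, the somatic kinase of this family, had 59.6 and 29.4 CPM in WT and 34.9 and 49.2 CPM in the other group, with WT holding both extremes.

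The CDC25 phosphatases remove that phosphate. *Cdc25b* had 30.4 and 17.4 CPM in WT and 33.7 and 24.5 CPM in the cKO-labelled libraries (log2 fold change 0.28 ± 0.38, SE). *Cdc25a*, which acts mostly at the G1/S step, ran from 25.7 to 35.0 CPM and *Cdc25c*, a mitotic phosphatase, from 12.3 to 21.1 CPM, both with overlapping groups. *Skp2*, the ubiquitin ligase subunit that targets p27, had 13.9, 9.29, 12.4 and 11.3 CPM from WT 1 and WT 2 to *Sirt6* cKO 1 and 2, a difference of 0.03 ± 0.35. The sum of the 3 phosphatases was 65.9 and 43.2 TPM in WT and 58.2 and 57.5 TPM in the other group.

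**Figure D4:**
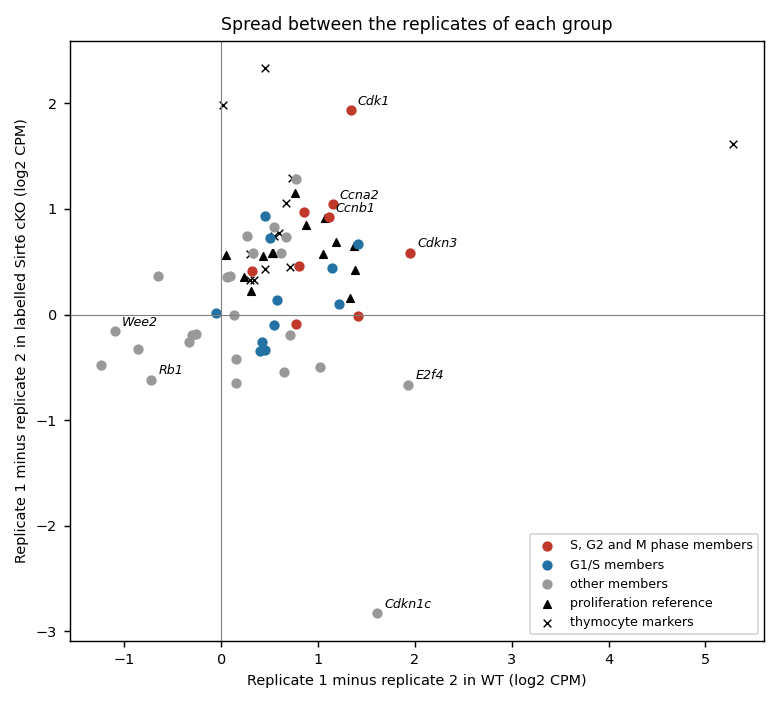
Difference between replicate 1 and replicate 2 in WT (x axis) and in the cKO-labelled libraries (y axis), in log2 CPM, for each member by phase, for 14 proliferation genes and for 12 thymocyte markers. Most late members and every proliferation and thymocyte gene lie in the upper right, where replicate 1 is higher in both groups.

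In 39 of the 44 members (88.6%) the larger replicate gap exceeded the gap between group means, against 71.8% of all genes tested. The larger of 2 gaps between single libraries is set here against a difference of means, which favours the replicate gap. No label pairs the libraries that share a number. In WT, replicate 1 was above replicate 2 in 35 of 44 members (79.5%, against 50.9% of all genes tested), and in the cKO-labelled libraries in 23 (52.3%, against 49.7%). It was higher in both groups in 21 members (47.7%, against 24.6%). WT 1 was the highest library in 22 members and WT 2 the lowest in 19, where 26.8% and 27.9% of all genes tested had these libraries at the ends. By phase, of the 9 late members, which peak in S, G2 or M phase (*Ccna2*, *Ccnb1*, *Ccnb2*, *Ccnf*, *Cdk1*, *Cdkn3*, *Cks2*, *Cdc25b* and *Cdc25c*), 9 were higher in replicate 1 of WT and 7 in replicate 1 of the other group. Of the 11 G1/S members these counts were 10 and 7, and of the 24 other members 16 and 9; the difference between phases was not tested.

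The median difference between replicates of the late members was 1.11 (log2) in WT and 0.59 in the cKO-labelled libraries, while their median difference between genotypes was 0.05. For the 11 G1/S members the medians were 0.50, 0.10 and -0.08, and for the 24 other members 0.15, -0.19 and -0.10. In all 9 late members the larger of the 2 gaps between replicates exceeded the gap between genotypes, against 71.8% of all genes tested. For *Ccnf* the margin was narrow, with a replicate gap of 0.413 in the cKO-labelled libraries and a group difference of -0.411 (log2 CPM). Its groups did not overlap. Together the late members summed to 263 CPM for WT 1 and 133 CPM for WT 2, and to 242 CPM for *Sirt6* cKO 1 and 142 CPM for *Sirt6* cKO 2. The median of the late members was 0.72 without WT 1 and -0.62 without *Sirt6* cKO 1, so its sign rested on which libraries were compared. In bulk RNA, fewer dividing cells and less RNA per dividing cell cannot be told apart.

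**Figure D5:**
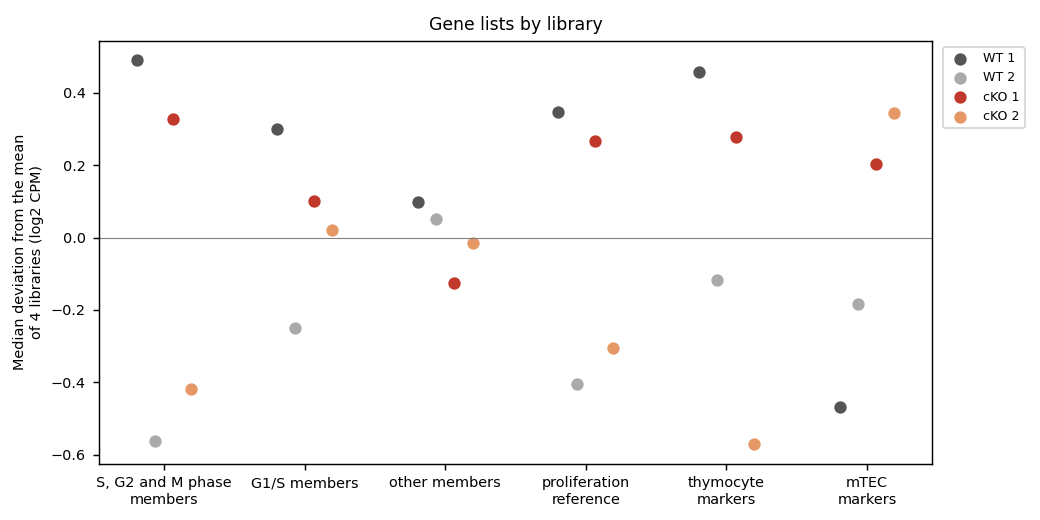
Median deviation of 6 gene lists from the mean of the 4 libraries (log2 CPM), by library. WT 1 and *Sirt6* cKO 1 lie above 0 and WT 2 and *Sirt6* cKO 2 below 0 for the late members, the proliferation genes and the thymocyte markers, and for the mTEC markers both WT libraries lie below 0 and both cKO-labelled libraries above it.

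In 14 proliferation genes outside the 44, replicate 1 also exceeded replicate 2 in both groups for 14 of 14, and the list summed to 1705 and 1123 CPM in WT and to 1680 and 1116 CPM in the cKO-labelled libraries. None of the 14 passed an unadjusted p of 0.05 in edgeR or DESeq2, and their median log2 fold change was -0.02. *Mki67*, the marker of cycling cells, had 92.4 and 43.8 CPM in WT and 117 and 62.1 CPM in the other group (0.39 ± 0.47, SE). *Top2a*, the topoisomerase of replicating cells, had 225 and 133 CPM in WT and 278 and 126 CPM in the other group. *Pcna*, the sliding clamp of replication, had 6.75 and 4.65 CPM in WT and 6.20 and 4.13 CPM in the other group. In each of these 3 genes the genotypes overlapped. These are RNA levels. From flow cytometry, the study reported a smaller share of mTECs positive for Ki67 protein and, in younger mice, less BrdU incorporation. From RNA-seq of mTECs it also reported reduced DNA replication in a gene set analysis.

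Thymocyte markers, which the CD45 gate should remove, were also higher in replicate 1. All 12 were detected in every library, and all 12 were higher in replicate 1 of both groups, with sums of 1841 and 1280 CPM in WT and 1655 and 1040 CPM in the cKO-labelled libraries. Their median log2 fold change was -0.42 and none of the 12 passed an unadjusted p of 0.05 in edgeR or DESeq2. Dividing thymocytes express many of the late members too, and the part of thymocyte RNA in the replicate order was not tested.

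Some markers of other lists passed the unadjusted threshold between the genotypes, and none passed an adjusted p of 0.05 in edgeR. In DESeq2, 2 mTEC markers, 2 macrophage and dendritic cell markers and 2 tuft cell markers passed an adjusted p of 0.05. The same held for 354 of the 20997 genes that DESeq2 tested. At an unadjusted p of 0.05 in edgeR, 4 of the 9 mTEC markers were higher in the cKO-labelled libraries (*Epcam*, *Aire*, *Cd80* and *Foxn1*). Lower were 3 of 10 macrophage and dendritic cell markers (*Cd68*, *Adgre1* and *Lyz2*), with sums of 4974 and 3064 CPM against 2016 and 2121. Also lower were 3 of 6 tuft cell markers (*Trpm5*, *Avil* and *Gnat3*), with sums of 265 and 307 CPM against 190 and 179. Of 6 cTEC markers 1 was higher (*Ly75*), while 4 of the 6 had a negative log2 fold change. The cTEC sums were 941 and 879 CPM in WT against 984 and 639 CPM. Over all genes tested, 5.27% were higher and 3.32% were lower at this threshold. The markers given by name were picked after their values were seen. None of 5 B cell markers (110 to 180 CPM in sum, 1 at 0 in WT 1 and in *Sirt6* cKO 2) and none of 7 fibroblast and endothelial markers (174 to 223 CPM) passed in edgeR or DESeq2. Their part in the differences of *Ccna1*, *E2f3*, *Cdkn1c* and *Wee2* was not tested.

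Further genes of the cell cycle were counted from fixed lists, all in edgeR at an unadjusted p of 0.05, and none passed an adjusted p of 0.05 there. Of 25 other cyclins and CDKs, 2 were higher and 1 was lower in the cKO-labelled libraries, beside 5.27% and 3.32% of all genes tested. *Ccng1*, a p53 target, had 219 and 238 CPM in WT and 395 and 390 CPM in the other group (log2 fold change 0.78 ± 0.15, SE). *Cdk12*, a kinase of transcription elongation, had 31.3 and 35.0 CPM in WT and 63.6 and 53.5 CPM in the other group (0.82 ± 0.24), and *Cdk8*, a kinase of the Mediator complex, had 13.3 and 14.9 CPM against 5.67 and 8.90 CPM (-0.95 ± 0.38). In all 3 genes the groups lay well apart, and the replicates close together in WT. DESeq2 placed 1 of the 25, *Ccng1*, past its adjusted threshold, beside 354 of the 20997 genes it tested.

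Of 7 genes of the MuvB, MYB and FOXM1 assembly, which binds CHR promoters, *Lin37* was lower, with 7.68 and 9.05 CPM in WT and 3.0 and 4.68 CPM in the cKO-labelled libraries (log2 fold change -1.12 ± 0.44, SE). Of 14 checkpoint and CDK control genes tested, *Hus1*, a subunit of the DNA damage clamp, was higher, with 7.17 and 3.55 CPM in WT and 13.5 and 17.3 CPM in the other group (1.52 ± 0.46). None of 22 ubiquitin ligase genes of the cycle passed in edgeR or DESeq2, while 8 of them were lower and 0 higher without overlap, beside 20.3% and 21.6% of all genes tested. Of 5 germ line cell cycle genes, 3 were tested and *Spdya*, an activator of CDK2 in meiosis, had 0 counts in both WT libraries and 31 and 41 counts in the other group, at least 12.4-fold higher with the same floor of 3 counts per library. *Ccna1* and *Spdya*, both known from meiosis, thus had their zeros in opposite groups. *Lin37*, *Hus1* and *Spdya* were 1 call in each of their lists, beside 5.27% of all genes tested that were higher and 3.32% that were lower.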

How the data were processed

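RNA was measured in mTECs of 2 WT and 2 *Sirt6* cKO libraries. The authors used Trim Galore to remove adaptors, HISAT2 2.1.0 to align reads to mm10 and StringTie 1.3.3 to quantify genes (versions from the submitters' processing notes). The deposited table held raw counts, which are whole numbers. The authors also deposited TPM values for each library, with 1 line of column totals that was left out. The annotation, strand setting and multi-mapping rule are not given in the sources used here, so reads from a gene and its antisense partner cannot be told apart (18 of the 44 members have such an overlap in GENCODE M21).

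Counts were tested with edgeR 4.0.16 in R 4.3.3 (TMM, filterByExpr set to 10 counts per library and 15 in total, glmQLFit and glmQLFTest) over 18547 genes, with Benjamini-Hochberg adjustment; the biological coefficient of variation was 0.557. The study's tool, DESeq2 1.42.0, was an alternative. Log2 CPM used a prior count of 2. Where both libraries of a group held at most 3 counts, 3 counts were taken for each, so the fold change is a bound. Sums of TPM over gene families and shares within them were computed per library. Promoter windows came from RefSeq, the first listed for each gene. Alternatives were no filter, the study's TPM filter of 0.1, upper quartile or no normalization factors, limma 3.58.1 on log2(TPM + 1) and log2(TPM + 0.1), a replicate block and leaving out each library. Data were simulated for the same comparison, with 18357 genes tested and every gene given the same biological coefficient of variation, 0.557. At an unadjusted p of 0.05, edgeR called 115 of 194 changed genes, 98 of 125 changed at least 4-fold, and 4.38% of unchanged genes. The members differ in spread, so these rates do not describe each of them.

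The study describes its samples as parallel and independent, and p-values measure the spread between these libraries. An exact permutation test of 2 against 2 cannot go below p = 0.333. Members and lists were chosen with earlier results of these data known. Members given with full values were those past an unadjusted p of 0.05 or at 3 or fewer counts in a group, the 2 with the largest log2 fold change in each role, and *Ccnd1*, *Ccnd2*, *Ccnd3*, *Cdk1*, *Ccnb1*, *Ccna2*, *Cdkn1a*, *Cdkn2a*, *Rb1* and *E2f1*; other members are given by library or by range. Of other lists, members past an unadjusted p of 0.05 were named, with *Mki67*, *Top2a* and *Pcna*.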

Additional observations from a re-analysis of the deposited data

How the results depend on the processing

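Depth limits mainly *Cks2* and *Cdkn2a*, with as few as 20 and 19 counts in a library. The count of members higher at an unadjusted p of 0.05 was 0 in both limma fits (on log2 TPM with a pseudocount of 1 or 0.1), and 1 to 2 without single libraries. The count of members lower was 2 with DESeq2, without a filter, with upper quartile factors and in both limma fits, 3 without normalization factors, and 1 to 3 without single libraries. DESeq2 placed 1 member past an adjusted p of 0.05, beside 354 of the 20997 genes it tested. The TPM filter removed *Ccna1*, and the 1 lower member there was *Cdkn1c*. The median log2 fold change of the late members ran from -0.62 to 0.72 without single libraries; the cause was not tested. *Ccna1* kept its direction and its call in all settings that tested it. *E2f3* lost its call with both limma fits (p of 0.0764 and 0.0871). Direction turned in 15 of 263 alternative values of the named members. Without single libraries the log2 fold change ran from -0.46 (without *Sirt6* cKO 1) to 0.81 (without WT 1) for *Ccna2*, from -0.85 to 0.32 for *Ccnb1*, from -0.26 to 0.025 for *Ccnd1*, from -0.17 to 0.27 for *Ccnd2*, from -0.94 to 0.46 for *Ccne2*, from -0.063 to 0.72 for *Cdc25b*, from -0.90 to 1.18 for *Cdk1*, from -0.16 to 0.61 for *Rb1* and from -0.24 to 0.95 for *Rbl1*. *Ccnd2* was -0.0020 with upper quartile factors and -0.013 without factors. Another 13 values, several of them for *Cdkn1c*, passed the threshold where the reported value did not, and 4 did the reverse. Both groups use replicate numbers 1 and 2, and no label pairs the libraries. Deviations of same-numbered libraries correlated at -0.0544 over 18547 genes, a value over all genes that does not describe single lists. Replicate 1 was higher in both groups for 47.7% of members, against 24.6% of all genes tested. The same order held for 14 of 14 proliferation genes and 12 of 12 thymocyte markers, and its cause was not tested. With a replicate block 1 member was higher and 1 lower, none passed an adjusted p, the medians were -0.05 over all members and 0.11 over the late members, and 697 genes were higher and 449 lower in place of 977 and 615. All leave-one-out fits leave 1 library alone in its group, which is assumed to vary like the other group.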

Other observations

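*Cdkn1c* lies in an imprinted region of chromosome 7, and the genes around it were looked up after its values were seen. *Kcnq1ot1*, the antisense RNA that silences *Cdkn1c* on the paternal allele, had 75.0 and 85.1 CPM in WT and 86.0 and 73.1 CPM in the cKO-labelled libraries (log2 fold change -0.01 ± 0.21, SE, edgeR). *Slc22a18* had 19.1, 17.1, 17.3 and 18.3 CPM from WT 1 and WT 2 to *Sirt6* cKO 1 and 2, and *Phlda2* had 1.53, 1.29, 1.62 and 1.17 CPM in the same order. The highest library exceeded the lowest by 1.18 times for *Kcnq1ot1*, 1.12 times for *Slc22a18* and 1.39 times for *Phlda2*, beside 34 times for *Cdkn1c*. *Igf2*, a growth factor gene of the neighbouring imprinted domain, had 2.57 and 2.09 CPM in WT and 5.47 and 4.97 CPM in the cKO-labelled libraries (1.16 ± 0.52, SE; edgeR unadjusted p = 0.0718), and *H19*, its noncoding neighbour, had 4.11 and 6.18 CPM against 2.88 and 4.27 CPM. Over the 10 genes looked up this ratio was at most 2.62, for *Igf2*. Since strand was not stated, reads of *Kcnq1ot1* and of *Kcnq1*, within which it lies, cannot be told apart where they overlap.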
